A study of Mus musculus with 58 samples.

Results

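The clustered protocadherin locus is a stretch of mouse chromosome 18 that holds the alpha, beta and gamma protocadherin gene families side by side. It was taken as every 5 kb window, tiled from the chromosome start, in chr18:36900001-38000000 (build mm9, as all coordinates here). Windows were taken by position without a filter on signal, but the range was set with earlier results of these data known. The range held 220 windows out of 527783 on the autosomes and X. Within this range of 1.1 Mb, the alpha subcluster was set at chr18:37090001-37350000 (52 windows), beta at chr18:37420001-37670000 (50 windows) and gamma at chr18:37820001-38000000 (36 windows). The other 82 windows lay before alpha (38) and in the gaps between alpha and beta (14) and between beta and gamma (30). The 500 kb on either side of the range, 200 windows in all, served as flanks. No annotation of mm9 was used here, so these bounds are approximate and no window below is assigned to a gene.

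H3K27ac, an acetylation of histone H3, was profiled in full-grown oocytes with STAR ChIP-seq, chromatin immunoprecipitation scaled to small cell numbers. The control oocytes were labelled Setd2+/- and the knockout oocytes Setd2-/-, the latter from what the series calls a maternal knockout. Setd2 encodes the methyltransferase that places H3K36me3, a trimethylation of histone H3. The 4 samples belong to a series of 58, whose other 54 samples were not analysed here. The sources used here do not give the Cre driver, the strain or the number of mice and oocytes per replicate. The labels' protocol names females 8 weeks old given PMSG and hCG, but its text on germinal vesicle oocytes is not legible. Both replicates of a genotype are named for 1 deposited track, so each genotype has 1 pooled value, no spread between replicates can be given and no test was made. Reads could be recovered exactly from the values, 30694806 in the control pool and 29367645 in the knockout pool.

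Clustered protocadherins are cell adhesion proteins of the cadherin superfamily, best known in neurons, where each cell expresses a combination of them that serves as a surface identity. In the alpha and gamma families, each variable exon has its own promoter and is spliced to constant exons shared by the family, whereas each beta gene is a single exon. In neurons, promoter choice in this locus involves CTCF, cohesin and distant enhancers. H3K27ac marks active promoters and enhancers, and H3K36me3 marks the bodies of transcribed genes.

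A RefSeq table of the GRCm38 assembly, used for names and order only, lists 58 members: 14 alpha (Pcdha1 to Pcdha12, then Pcdhac1 and Pcdhac2), 22 beta (Pcdhb1 to Pcdhb22) and 22 gamma (Pcdhga1 to Pcdhga12, with Pcdhgb genes interspersed, then Pcdhgc3, Pcdhgc4 and Pcdhgc5). The gamma member Pcdhgb8 is listed as a transcribed pseudogene. In that order no protein-coding gene lies between alpha and beta. Slc25a2, a mitochondrial carrier, and Taf7, a subunit of the general transcription factor TFIID, lie between beta and gamma. Wdr55, Dnd1, Hars, Hars2 and Zmat2 are the nearest protein-coding genes before alpha, and Diaph1, Hdac3 and Rell2 the nearest after gamma. Dnd1 encodes an RNA-binding protein of germ cells, and Hars and Hars2 encode histidyl-tRNA synthetases. Family members resemble each other in sequence, and how reads that match several places were treated is not given in the sources used here, so signal may have been lost or shared among them.

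In oocytes of both genotypes the range was poor in H3K27ac next to its flanks, and beta had several times the signal of alpha and gamma. The control pool had 7733 reads in the range and a mean of 0.229 RPKM, reads per kilobase scaled to library size. The knockout pool had 9549 reads and a mean of 0.296 RPKM. These means were 0.613 and 0.764 of the autosomal means, 0.374 (control) and 0.387 RPKM (knockout). Against the flanks, the range stood at 0.486 in control (95% exact binomial interval 0.473 to 0.50) and 0.475 in knockout (0.463 to 0.487). Without the segment before alpha, the rest of the range stood at 0.481 of the flanks in control and 0.404 in knockout. The segment thus moved mainly the knockout value. With flanks of 1 Mb the range stood at 0.537 and 0.428. Chromosome 18 as a whole had 0.411 and 0.412 RPKM and so did not stand low.

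The typical window of the range was poorer still than its mean. The median window had 0.130 RPKM in control, where the median of autosomal windows was 0.306. In knockout the corresponding medians were 0.163 and 0.238. Windows below the autosomal median of their pool numbered 154 of 220 in control and 139 in knockout. Without a single read were 3 windows in control and 1 in knockout. If reads can be placed there, which was not checked, this allows at most 0.0196 and 0.0204 RPKM. The knockout one, chr18:37525001-37530000 in beta, had 0 reads in both pools. The richest windows reached 1.16 RPKM in control, in beta, and 1.81 RPKM in knockout, in the gap between beta and gamma.

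**Figure D1:**
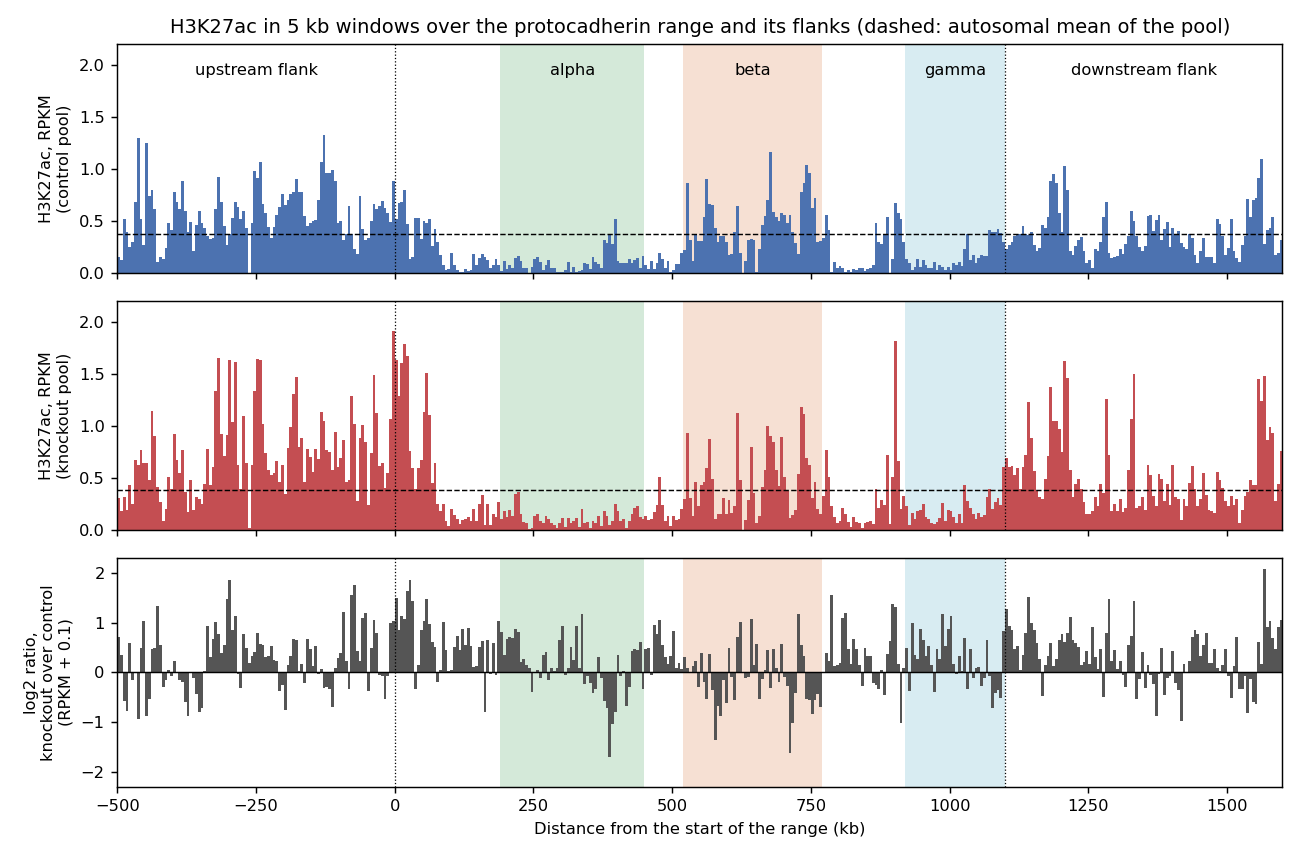
H3K27ac in RPKM (upper panels, control and knockout pool) and the log2 ratio of knockout over control (lower panel) in each 5 kb window, against the distance in kb from the start of the 1.1 Mb range, with the subclusters shaded, the ends of the range dotted and the autosomal mean of each pool dashed. Alpha and gamma lie mostly under the dashed line in both pools, beta crosses it (mean 0.460 RPKM in control and 0.446 in knockout), and the knockout pool is higher in the windows before alpha.

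Among the subclusters, beta carried most of the signal of the 3 families. Its mean was 0.460 RPKM in control, from 3528 reads, and 0.446 RPKM in knockout, from 3273 reads. Control beta was 4.46 times alpha (95% counting interval 4.13 to 4.82) and 3.03 times gamma (2.81 to 3.27). In knockout these ratios were 3.96 (3.67 to 4.27) and 2.38 (2.21 to 2.55), and gamma over alpha was 1.47 in control (1.33 to 1.62) and 1.67 in knockout (1.52 to 1.83). The order beta, gamma, alpha was thus the same in both pools. Beta was level with the flanks in control, at 0.976 of them (0.941 to 1.01). In knockout beta stood at 0.716 of both flanks together (0.690 to 0.744), where the flanks had more signal and beta did not. There it was below each of them, at 0.725 RPKM upstream and 0.520 RPKM downstream. Control windows of beta ran from 0 to 1.16 RPKM with a median of 0.391, and knockout windows from 0 to 1.19 RPKM with a median of 0.392.

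Between genotypes, the mean of beta differed little. Its knockout over control ratio was 0.970, with a counting interval of 0.924 to 1.02. It became 1.25 when knockout was multiplied by 1.28 to set the medians of autosomal windows equal. Reads were more uneven along windows than independent counts, with a variance over mean of 3.54 in control and 5.28 in knockout across 500-base stretches. Allowing for this unevenness, the interval of beta was 0.877 to 1.07. These intervals still hold no difference between animals or libraries, and they leave out the spread of ratios between windows.

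From alpha to gamma, the longest runs of windows that all reached 0.379 RPKM, the genome-wide mean, in the average of the pools lay in beta. They were 50 kb at chr18:37560001-37610000, with 0.609 RPKM (control) and 0.651 RPKM (knockout), and 30 kb at chr18:37630001-37660000, with 0.831 and 0.728 RPKM. The similar means of beta covered differences between its windows in both directions. Signal was higher in knockout in 20 of its 50 windows, with a median log2 ratio of -0.10, against 0 over autosomal windows. The log2 ratio ran from -1.61 to 1.18. Log2 ratios of windows were taken after adding 0.1 RPKM to both pools, so they are smaller than the plain ratios where signal is low. The richest window, chr18:37575001-37580000, had 178 reads in control and 133 in knockout, or 1.16 and 0.906 RPKM. The next, chr18:37635001-37640000, had 0.867 and 1.11 RPKM, and its neighbour chr18:37630001-37635000 had 0.775 and 1.19 RPKM. All 3 leading windows were therefore well above the autosomal mean in both pools, the first higher in control and the others higher in knockout.

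Opposite differences also stood close together in beta. At chr18:37610001-37615000 control had 86 reads and knockout 17, or 0.560 and 0.116 RPKM. The following window had 0.391 in control and 0.143 RPKM in knockout. At 5 kb from the end of that window, chr18:37625001-37630000 had 0.182 in control and 0.538 RPKM in knockout. These windows were singled out after their values were seen. Knockout reads were also more bunched: 51.0% of the 100 bp bins of beta held a read in control and 38.9% in knockout. The same shift was seen over the autosomes, at 44.0% and 33.6%, and its part in the differences of single windows was not tested.

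At the end of beta, H3K27ac was lower in knockout over 6 adjacent windows, chr18:37640001-37670000, a run singled out after its values were seen. The first of them had 1.04 in control and 0.688 RPKM in knockout. At chr18:37645001-37650000 control had 147 reads and knockout 91, or 0.958 and 0.620 RPKM, a log2 ratio of -0.56. The next window, chr18:37650001-37655000, had 0.626 and 0.307 RPKM. Its log2 ratio of -0.84 was the lowest in the range among windows that reached the genome-wide mean, which it did only through its control value. Within this run the richest 1 kb of beta in control, chr18:37647001-37648000, had 59 reads against 5 in knockout. In knockout the richest 1 kb of beta was chr18:37629001-37630000, with 22 reads in control and 62 in knockout, of which 32.3% fell in 1 bin. The other low log2 ratios of beta under this filter were at chr18:37655001-37660000, at -0.57, and chr18:37460001-37465000, at -0.54.

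Alpha was the poorest subcluster in both pools. It had 0.103 RPKM in control (823 reads) and 0.113 RPKM in knockout (860 reads), or 0.276 and 0.291 of the autosomal means. In each pool 49 of its 52 windows lay below the autosomal median. The ratio of knockout over control was 1.09, with a counting interval of 0.992 to 1.2 and an interval of 0.894 to 1.33 with the unevenness. Both intervals include 1, so no direction of a difference in the mean of alpha can be given. That mean covered differences in both directions, described below. With the medians of autosomal windows set equal the ratio was 1.40.

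Most of alpha formed an extended poor stretch. Windows whose mean over both pools was below 0.190 RPKM, 0.5 of the genome-wide mean, numbered 126 of 220 in the range. Of the 52 windows of alpha, 46 were among them. The share of autosomal windows below that level was not counted. By control level alone, 75727 of 494453 autosomal windows had under 0.05 RPKM, 48402 had 0.05 to 0.1 and 64874 had 0.1 to 0.2. In the range these classes held 52, 37 and 50 of the 220 windows. The longest unbroken run of windows below 0.190 RPKM spanned 150 kb, chr18:37125001-37275000, at 0.0632 in control and 0.0806 RPKM in knockout. A further 75 kb at chr18:37300001-37375000, which runs into the gap after alpha, had 0.0973 and 0.137 RPKM. Between these runs lay the richest part of alpha in control.

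There, at chr18:37275001-37300000, H3K27ac was lower in the knockout pool. The 5 windows had 48, 44, 58, 42 and 79 reads in control and 26, 20, 7, 12 and 37 in knockout. All 5 were thus lower in knockout, with means of 0.353 and 0.139 RPKM, a ratio of 0.393. The stretch held 32.9% of the reads of alpha in control and 11.9% in knockout. Its window at chr18:37285001-37290000 had the lowest log2 ratio of the range, -1.69. Its last window, chr18:37295001-37300000, was the richest of alpha, at 0.515 and 0.252 RPKM. It was the only one of alpha to reach the genome-wide mean, which it did only through its control value. The stretch was delimited by these differences, as adjacent windows with log2 ratios of -0.5 or lower around the lowest one, so its ratio is a description and supports nothing further. The other 47 windows of alpha had 0.0765 RPKM (control) and 0.110 RPKM (knockout), a ratio of 1.44 (1.28 to 1.60) that depends on the same choice.

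The other rich windows of alpha were near its start. At chr18:37120001-37125000 there were 0.163 in control and 0.361 RPKM in knockout, and at chr18:37115001-37120000 there were 0.143 and 0.347 RPKM. Both were higher in knockout, 2.22-fold (1.35 to 3.72) and 2.42-fold (1.44 to 4.2), and both lay below the knockout mean of the autosomes. The richest 1 kb of alpha had 25 control and 4 knockout reads at chr18:37296001-37297000, inside the lower stretch. In knockout it was chr18:37338001-37339000, with 6 control and 21 knockout reads.

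Gamma lay between alpha and beta. Its mean was 0.152 RPKM in control (838 reads) and 0.188 RPKM in knockout (992 reads), a ratio of 1.24 (1.13 to 1.36, or 1.02 to 1.5 with the unevenness). Signal was higher in knockout in 24 of 36 windows, with a median log2 ratio of 0.27. The first 105 kb of gamma, chr18:37820001-37925000, were poor without a break, at 0.0720 in control and 0.134 RPKM in knockout. The last 50 kb of gamma, chr18:37950001-38000000, had 0.295 and 0.276 RPKM and were its richest. In gene order Pcdhgc3, Pcdhgc4 and Pcdhgc5 come last in this family, but which windows hold them was not determined.

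The 3 richest windows of gamma all lay in its last 30 kb. The window at chr18:37995001-38000000, at the border with the downstream flank, had 46 reads in control and 89 in knockout, or 0.30 and 0.606 RPKM. Its plain ratio was 2.02 (1.40 to 2.95) and its log2 ratio 0.82. At chr18:37970001-37975000 the pools were close, with 0.411 and 0.388 RPKM. At chr18:37985001-37990000 the order was the other way, with 0.424 and 0.307 RPKM and a counting interval of the ratio, 0.484 to 1.07, that includes 1. The richest 1 kb of gamma was chr18:37985001-37986000 in control, with 30 and 13 reads, and chr18:37995001-37996000 in knockout, with 11 and 28 reads.

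**Figure D2:**
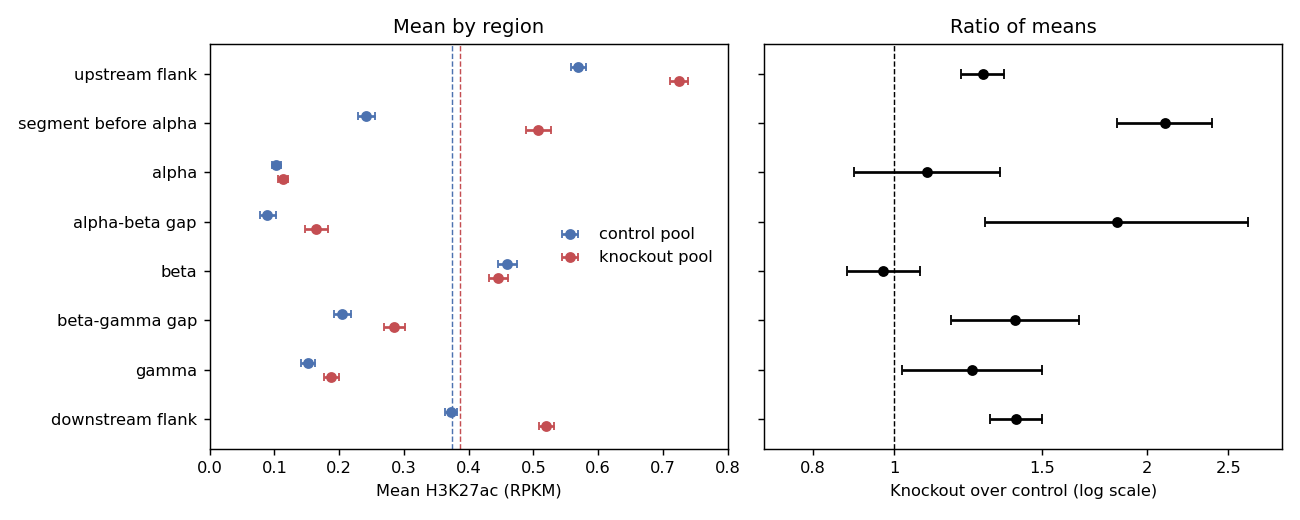
Mean H3K27ac in RPKM by region in the control and knockout pools (left, bars are exact Poisson 95% intervals, dashed lines the autosomal means) and the ratio of knockout over control on a log axis (right, bars are 95% intervals widened for the unevenness of reads within windows of the range). Beta and alpha have ratios of 0.970 and 1.09 whose bars cross 1, while the segment before alpha has the highest ratio, 2.10.

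Both gaps had more signal in the knockout pool, as had autosomal windows of low control level, described below. The gap between alpha and beta was as poor as alpha in control, at 0.0894 RPKM, and had 0.164 RPKM in knockout. Its ratio was 1.84 (1.54 to 2.21, or 1.28 to 2.64 with the unevenness) from 192 and 338 reads. The gap between beta and gamma had 0.205 and 0.285 RPKM, a ratio of 1.39 (1.28 to 1.52, or 1.17 to 1.66 with the unevenness). Its signal was concentrated in few windows. The window at chr18:37800001-37805000 had 103 reads in control and 266 in knockout, or 0.671 and 1.81 RPKM, and was the richest of the range in knockout. Only 5 kb after it, chr18:37810001-37815000, a window singled out after its values were seen, had 0.515 in control and 0.204 RPKM in knockout. Which of these windows hold Slc25a2 or Taf7 was not determined.

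Among the regions, the segment before alpha, outside the bounds set for the families, had the highest ratio of knockout over control. The 190 kb from the start of the range to alpha had 0.242 RPKM in control (1410 reads) and 0.507 RPKM in knockout (2831 reads), a ratio of 2.10 (1.97 to 2.24, or 1.84 to 2.39 with the unevenness). Signal was higher in knockout in 33 of 38 windows. It was not spread evenly along the segment. Its first 50 kb had 0.481 RPKM (control) and 1.10 RPKM (knockout), and its next 50 kb had 0.280 and 0.563 RPKM. The third 50 kb had only 0.0645 and 0.120 RPKM, so the step down into the poor part of the range lay before alpha in both pools.

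Of the 5 highest log2 ratios among windows that reached the genome-wide mean, 4 were found in this segment. At chr18:36925001-36930000 control had 21 reads and knockout 111, or 0.137 and 0.756 RPKM, a log2 ratio of 1.85 and a 5.53-fold difference (3.44 to 9.28). Its control value was below the genome-wide mean, so it was among these windows only through its knockout value. The window before it had 0.469 and 1.67 RPKM, a log2 ratio of 1.64. At chr18:36900001-36905000, the first window of the range, the values were 0.515 and 1.63 RPKM, and at chr18:36955001-36960000 they were 0.482 and 1.51 RPKM. Their log2 ratios were 1.5 and 1.46, and the window between beta and gamma described above followed with 1.31. With at most 10 reads counted per bin these 5 log2 ratios lay between 1.11 and 1.83, all still past 2-fold. The 2 flank windows that adjoin the segment, chosen after their values were seen, also had more signal in knockout, with plain ratios of 2.19 and 2.16.

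More signal in the knockout pool was also seen in both flanks. The upstream flank had 0.570 in control and 0.725 RPKM in knockout, a ratio of 1.27 (1.24 to 1.31). The downstream flank had 0.373 and 0.520 RPKM, a ratio of 1.39 (1.35 to 1.44). Together the flanks had a ratio of 1.32 (1.29 to 1.35), close to that of the range as a whole, 1.29 (1.25 to 1.33). This closeness depended on the width of the flanks. Those of 250 kb gave 1.30 upstream and 1.58 downstream, and those of 1 Mb gave 1.41 and 1.82. The ratio of the autosomal means was 1.04. From the start of alpha to the end of gamma, without the segment before alpha, the ratio was 1.11 (1.07 to 1.15). The cluster proper was thus nearer to the autosomal ratio than either flank. The ratios of alpha and beta lay below those of both flanks with intervals that did not overlap theirs when only counting error was allowed for. The counting interval of gamma, 1.13 to 1.36, overlapped those of both flanks. With the unevenness included, the interval of beta, 0.877 to 1.07, still lay below those of the flanks, 1.2 to 1.35 and 1.30 to 1.5, whereas that of alpha overlapped both. That unevenness was measured within windows of the range and not in the flanks. It leaves out the spread of ratios between windows, so these intervals are too narrow to settle whether the regions differ.

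Single windows were compared by a 2-fold rule on the log2 ratio, applied to windows that reached the genome-wide mean in the average of the pools. A window can reach that level through its signal in either pool alone. Of the 220 windows of the range 46 reached that level and 174 did not. Among the 46, 9 were at least 2-fold higher in knockout and 0 at least 2-fold lower. Over all windows of the autosomes and X, 11.6% were higher and 15.2% lower by this rule, and on the autosomes alone 12.2% and 13.4%. Of the 9 higher windows, 7 lay before alpha, 1 in beta and 1 between beta and gamma, so the cluster proper had 2 of 33. The upstream flank had 12 of 84 higher and 0 lower, and the downstream flank 8 of 51 higher and 0 lower. The lack of lower windows was thus shared with both flanks. With at most 10 reads counted per bin, 3 of the 9 fell below 2-fold, with log2 ratios of 0.95 at chr18:36915001-36920000, 0.92 at chr18:36950001-36955000 and 0.85 at chr18:37540001-37545000. The last of these is the only higher window of beta. Its control value, 0.326 RPKM, was below the genome-wide mean, so it passed only through its knockout value. The windows compared were mostly of beta (24) and of the segment before alpha (13), with 1 of alpha and 2 of gamma. No p-value can be given for these counts, by this or any other tool, as each genotype has 1 pool.

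Without the filter all 220 windows were compared. Of these, 22 were at least 2-fold higher in knockout and 6 at least 2-fold lower. Over all windows of the autosomes and X the shares were 8.58% higher and 13.1% lower, and on the autosomes 9.02% and 11.6%. The 6 lower windows were 2 in alpha, 3 in beta and 1 between beta and gamma, which spanned 0.274 to 0.560 RPKM in the control pool and 0.0477 to 0.204 in the other. Of the 22 higher windows, 10 lay before alpha. The 13 higher windows below the filter were poor in control, at 0.0130 to 0.196 RPKM, and 2 of them rested on 2 control reads. The most extreme, chr18:37685001-37690000, had 2 reads in control and 34 in knockout, a ratio of 17.8 whose counting interval spans 4.56 to 153. Just inside the filter was the window of alpha at chr18:37295001-37300000, with a mean over both pools of 0.383 RPKM. Just outside was chr18:36930001-36935000, with a mean of 0.375 RPKM, with 0.156 (control) and 0.593 RPKM (knockout).

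**Figure D3:**
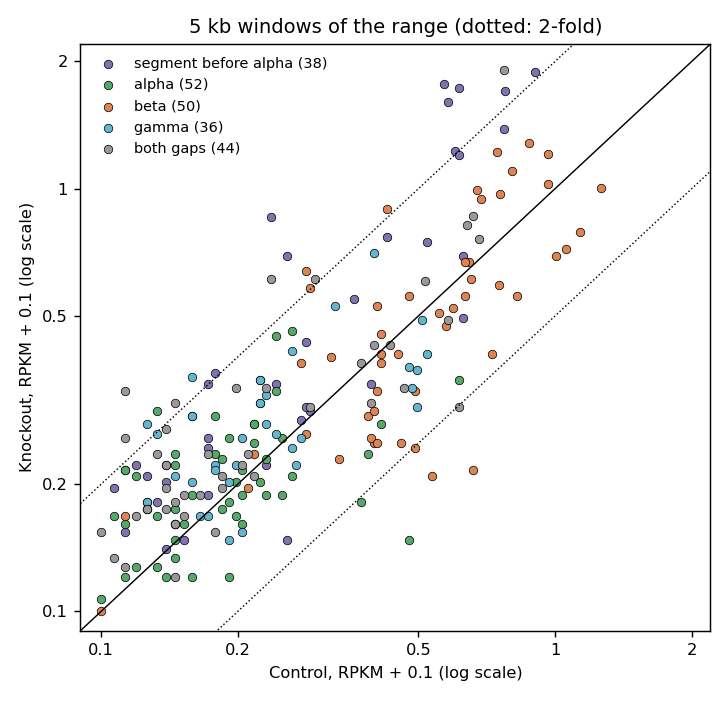
Each point is a 5 kb window of the range, with control RPKM + 0.1 against knockout RPKM + 0.1 on log axes, coloured by region; the solid line marks equality and the dotted lines 2-fold differences. Windows before alpha hold most points above the upper dotted line at high signal, and beta windows scatter on both sides of equality, with 20 of 50 higher in knockout.

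The ratio of a window depends on its control level across the genome, so windows of the range were set beside autosomal windows in the same class of control level. Autosomal windows with under 0.05 RPKM in control had 3.83 times as much signal in knockout, and those at 0.8 RPKM or more had 0.856 times as much. The 44 windows of the cluster proper in the lowest class had a ratio of 3.09, but from a higher control mean, 0.0284 against 0.0169 RPKM on the autosomes, and with a higher knockout mean, 0.0879 against 0.0647 RPKM. In the class from 0.05 to 0.1 RPKM its ratio was 1.44, against 1.92 on the autosomes. From 0.1 to 0.2 RPKM both were 1.46. In the class from 0.2 to 0.4 RPKM its 33 windows had a ratio of 0.834, against 1.19 on the autosomes. From 0.4 to 0.8 RPKM the values were 1.07 and 0.969, and at 0.8 RPKM or more, where the cluster had 6 windows, 0.836 and 0.856. The median knockout window of that top class had 0.797 RPKM in the cluster and 0.770 on the autosomes, the opposite order to the ratios. No uniform order of cluster and autosomes thus ran through the classes. Before alpha, the 10 windows from 0.4 to 0.8 RPKM had a ratio of 2.18. Sorting by control level puts the counting error of the control pool into both sets of ratios. They are descriptions of 2 pools, and neighbouring windows are not independent.

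**Figure D4:**
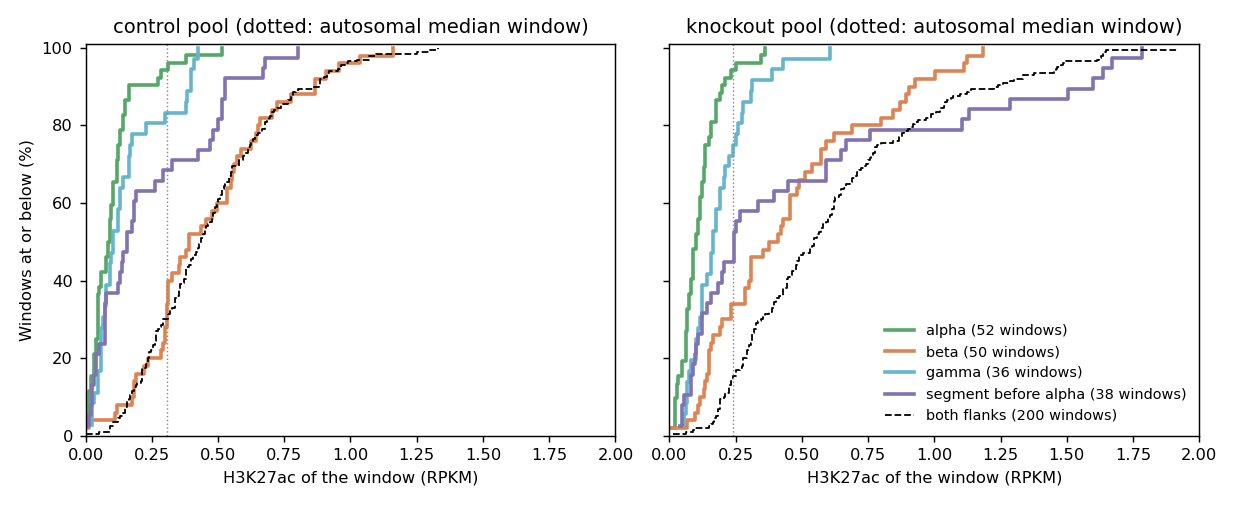
Share of windows in percent at or below a given H3K27ac level in RPKM, by region, in the control pool (left) and the knockout pool (right), with both flanks dashed and the autosomal median window dotted. In control the curve of beta follows that of the flanks (means 0.460 and 0.471 RPKM), and in knockout it lies to the left of it (0.446 and 0.622 RPKM), while alpha rises steepest in both pools.

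The landscape along the range was similar in both pools. Pearson's r of log2(RPKM + 0.1) between control and knockout was 0.795 over the 220 windows, and 0.726 over all autosomal windows. It was 0.882 before alpha, 0.750 in beta, 0.741 between alpha and beta, 0.833 between beta and gamma, 0.663 in gamma and 0.462 in alpha. Within a pool, alternate 500-base stretches of the same windows correlated at 0.885 in control and 0.787 in knockout. These values are descriptions without a p, since windows are not replicates and share library, depth and base composition. Bins with over 10 reads held 2.21% of the control reads of the range and 13.7% of the knockout reads, and the richest bins held 14 and 29 reads. Knockout values of single windows are therefore the less even ones. Rich windows, at 3 times the mean of their pool or more, numbered 1 in control, in beta, and 8 in knockout, of which 6 lay before alpha, 1 in beta and 1 between beta and gamma. On the autosomes 1.70% of windows were this rich in control and 6.21% in knockout.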

How the data were processed

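H3K27ac STAR ChIP-seq tracks of 2 genotypes were used. The deposited values are the authors' RPKM in 100 bp bins, listed only where a bin has reads, with the unit inferred from the sums. Per the submitters' processing notes the build was mm9 and Bowtie2 2.2.2 was used. The sources used here do not give read extension, duplicate removal or input. All values were whole multiples of 1 read (0.326 RPKM in control, 0.341 in knockout) within 0.005 RPKM, and means were computed from these reads. Of the bins with reads, 43.0% in control and 52.9% in knockout held an even number. Whether reads came in pairs or as duplicates was not tested. Such reads would not be independent, and exact intervals of counts would then be too narrow. Region and window ratios have exact binomial (Clopper-Pearson) 95% intervals, for counting error only; the wider ones are normal intervals of the log ratio with the variance of each count multiplied by the variance over mean of its pool. Windows of 5 kb were compared across the genome as log2(RPKM + 0.1) and called at 2-fold. Named windows were the 3 richest of each subcluster, the 5 highest and 5 lowest log2 ratios among windows reaching the genome-wide mean, and the richest 1 kb per subcluster and pool; others are said to be chosen after seeing values. The range, regions and rules were chosen with earlier results of these data known. RefSeq GRCm38 was used for gene names only. No sequence is printed. Code was tested on simulated data with independent reads and changes planted only in windows rich in control. That test did not cover the unevenness of these reads or changes in poor windows. Software was matplotlib 3.10.9, SciPy 1.17.1, pandas 2.3.3 and NumPy 2.4.6 under Python 3.11.15.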

Additional observations from a re-analysis of the deposited data

How the results depend on the processing

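No paired analysis was possible because the replicates of a genotype share 1 pooled track, and leaving out a replicate was not run for the same reason. Of 75 values under alternatives, 37 stayed within the counting interval, within 1.5 times the count or within 0.1 of r, and 38 moved further. The ratio of beta, 0.970 in the main setting with an interval that includes 1, crossed 1 with equal medians. Leaving out the segment before alpha was chosen after seeing the data. Setting the medians of autosomal windows equal multiplies knockout by 1.28, a log2 shift of 0.36. It gave ratios of 1.66 for the range, 1.40 for alpha, 1.25 for beta, 1.59 for gamma, 1.64 upstream and 1.79 downstream. Under it the 3 subclusters were all higher in knockout, with beta the least. Equal autosomal means gave 1.25 for the range, 1.23 upstream and 1.35 downstream. At most 10 reads per bin gave 1.25 for the range and 1.23 upstream. Flanks of 250 kb gave 1.58 downstream, and flanks of 1 Mb 1.41 upstream and 1.82 downstream. The range over flanks was then 0.456 and 0.537 in control and 0.418 and 0.428 in knockout. By medians of windows it was 0.299 and 0.30, and over autosomes 0.426 and 0.686. Without the segment before alpha the ratio of the range was 1.11, knockout stood at 0.404 of the flanks and 0.649 of the autosomes, and 2 windows were higher. Higher windows, 9 of 46 in the main setting (11.6% of all windows), numbered 16 of 47 with equal medians (23.2%), 3 of 46 with a pseudocount of 0.5 (2.58%), 22 of 220 with no filter (8.58%), 14 of 46 at 1.5-fold (25.4%), 32 of 122 in 2 kb windows (15%) and 4 of 26 in 10 kb windows (9.81%). Lower windows, 0 of 46 in the main setting (15.2%), numbered 2 with a pseudocount of 0.01 (18.8%), 6 of 220 with no filter (13.1%), 2 at 1.5-fold (26.5%), 10 of 122 in 2 kb windows (18%) and 2 of 49 with tiles starting 2500 bases later (15.2%). The cause of these changes was not tested. Pearson's r was 0.688 in 2 kb windows.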
